A study of Homo sapiens with 12 samples.

Results

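The genes described here are the cytosolic ribosomal proteins and the small nucleolar RNA (snoRNA) host genes of the SNHG series. They were taken from the array's gene table by symbol: RPL or RPS followed by a number, the acidic proteins RPLP1 and RPLP2, and SNHG followed by a number. Kinases named RPS6K and pseudogenes were left out. Of 95 symbols named by that rule, 86 have a probe set that carries only their symbol, among 18132 genes measured in the same way. These are 74 ribosomal protein genes, 10 snoRNA host genes (SNHG1, SNHG7, SNHG8, SNHG9, SNHG11, SNHG12, SNHG17, SNHG28, SNHG29 and SNHG32) and 2 noncoding neighbours, RPL26L1-AS1 and RPL34-DT. The other 9 symbols (RPL17, RPL36A, RPS12, RPS26, SNHG15, SNHG25 and the readthrough genes RPL17-C18orf32, RPL36A-HNRNPH2 and RPS10-NUDT3) share their probe sets with other genes and have no value of their own. GAS5, RPSA and RPLP0 are not analysed here. A filter on low signal (a mean of at least 4.48 on the log2 scale) left 72 proteins and all 10 host genes to be tested. RPL3L, RPS4Y2 and both noncoding neighbours lay below it.

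The samples are 12 PrimeView expression arrays. All come from THP-1, a line established from a human monocytic leukaemia, which turns macrophage-like under the phorbol ester PMA. Cells of the temperature experiment had been differentiated with 100 ng/ml PMA for 48 hours and were held at 40 °C, a fever-like temperature, or at 37 °C (3 arrays each). In the inhibitor experiment, cells labelled siThermomir were compared with control cells (3 arrays each). Per the labels' protocol, these were likewise differentiated with 100 ng/ml PMA for 48 hours, here at 40 °C. They were nucleofected with a hairpin microRNA inhibitor together with a GFP plasmid, and sorted for GFP after 24 hours. The protocol names inhibitors of miR-142, miR-143 and ThermoMIR-1 and a non-human control inhibitor, and the array titles speak of siRNA and WT. Which microRNA was blocked on the arrays, whether their controls received the control inhibitor, and which of the harvests at 2, 8 and 24 hours was hybridised are not stated. All 4 groups are the same cell line, and no label says that the arrays of a group came from separate cultures. The p-values therefore cover the array-to-array spread alone, which may be technical, and the number of arrays limits the precision.

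Ribosomal proteins are the protein part of the ribosome, and cells make them in matched amounts from many genes at once. Their mRNAs typically begin with a C followed by an uninterrupted run of pyrimidines (the terminal oligopyrimidine or TOP motif), through which mTOR and LARP1 control their translation and stability. SNHG genes carry snoRNAs in their introns. The snoRNAs guide the chemical modification of ribosomal RNA, while the spliced host RNA codes for no conserved protein and is often degraded by nonsense-mediated decay. Many snoRNA host genes, and some ribosomal protein genes, have snoRNAs and a TOP start in common.

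The start of each transcript is shown because the TOP motif is the shared feature of this gene family that the symbol rule did not use. The windows below hold 10 bases before and 20 bases from the RefSeq start (GRCh38.p14), read 5′ to 3′ on the strand of the gene. Capitals mark the uninterrupted run of C and T that begins at the start. They are given for the host genes that were lower at 40 °C, for the paralogues RPL22L1 and RPL22, and for RPS3, the brightly measured protein with the largest difference under the inhibitor.
SNHG1, chr11:62855866-62855895, minus strand: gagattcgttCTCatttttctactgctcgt
SNHG12, chr1:28581854-28581883, minus strand: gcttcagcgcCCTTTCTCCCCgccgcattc
SNHG32, chr6:31834906-31834935, plus strand: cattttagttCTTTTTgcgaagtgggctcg
SNHG7, chr9:136728165-136728194, minus strand: ccttctcgtcCTCTgcgtgcgccggaggct
SNHG29, chr17:16438977-16439006, plus strand: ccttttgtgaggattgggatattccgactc
RPL22L1, chr3:170870176-170870205, minus strand: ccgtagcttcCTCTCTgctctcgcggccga
RPL22, chr1:6199576-6199605, minus strand: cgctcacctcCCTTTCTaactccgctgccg
RPS3, chr11:75399508-75399537, plus strand: cgagccacttCCTTTCCTTTCagcggagcg

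A C at the start followed by at least 4 bases that are each C or T was searched on the strand of the gene only, at the start itself. It was present in 43 of the 61 tested proteins with a RefSeq promoter entry (70.5%) and in 2 of 9 host genes (22.2%), SNHG12 and SNHG32. Among all 27305 genes with an entry the share was 1404 genes (5.14%). A gene with several annotated starts counted as a match if any of them matched. Counted per start, it was 43 of 73 for the proteins (58.9%) and 4.07% of 35116 for all genes. SNHG29 has no C or T run at the annotated start, and in SNHG1 and SNHG7 the run is broken after 3 and 4 bases. A match or its absence in this window describes the annotated start only. SNHG9 and 11 tested proteins had no entry.

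On the arrays the proteins were among the brightest features. Of the 72 tested, 60 lay at or above the 99th percentile of all probe sets (12.43 on the log2 scale). For 59 of the 72, and for 4 of 10 host genes, the probe set is of a type (suffix x or s) that can hybridise to related transcripts. Ribosomal protein genes also have many near-identical processed pseudogenes, so the assignment of signal to 1 copy is uncertain for these genes. An array measures RNA relative to the other RNAs in the sample, and in bulk RNA fewer cells of a type and less RNA per cell cannot be told apart. The monocyte and macrophage marker list was present (11 of 12 genes measured and tested). Erythroid markers, listed because the growth protocol also names K562 cells, averaged 4.74 to 5.26 on the log2 scale in every array over the 5 of 10 genes measured, close to the filter, and none of the 2 tested was called in either experiment. Across probe sets, arrays of the same group had correlations of 0.9939 to 0.9984.

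The temperature comparison asked which transcripts differ between 40 °C and 37 °C. On the brightest probe set of each gene, few ribosomal proteins were called, and the host genes that were called were lower at 40 °C. Of 72 proteins, 1 was higher at 40 °C (RPL13) and 5 were lower (RPL22L1, RPL27A, RPL35A, RPL36AL and RPS9), which is 8.33% (limma, Benjamini-Hochberg adjusted p under 0.05). Of all 13909 genes tested, 39.3% were called, 21.6% higher and 17.7% lower, and of 742 genes of similar signal (mean at or above the 10th percentile of the proteins) 41.4%. Of 10 host genes, 5 were lower (SNHG1, SNHG12, SNHG32, SNHG7 and SNHG29) and none was higher, which is 50.0% and near the share of all genes. Averaging the probe sets of each gene gave 3 host genes lower and a host median of −0.065, with 5 proteins higher and 10 lower. At an unadjusted p under 0.05, 1 host gene was higher. The median log2 difference was −0.04 over the proteins, −0.16 over the host genes and 0.01 over all genes tested.

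On these probe sets the difference was at most 0.1 on the log2 scale for 64 of the 72 proteins (88.9%), against 42.0% of all genes tested and 49.1% of the genes of similar signal. For the host genes it was 2 of 10 (20.0%). The sign was uneven all the same, with 54 proteins below 0, 16 above it and 2 at 0. The 3 arrays at 40 °C did not overlap with those at 37 °C for 31 proteins (43.1%), 28 of them lower and 3 higher at 40 °C. Over all genes tested the groups did not overlap for 49.5%, with 22.5% lower and 27.0% higher, and over the genes of similar signal for 66.0%. The mean log2 signal over the 72 proteins was 12.91 ± 0.01 at 40 °C and 12.95 ± 0.01 at 37 °C (SD, n = 3 each), and over the 10 host genes it was 8.55 ± 0.01 at 40 °C and 8.68 ± 0.01 at 37 °C. The median SE of a protein's difference was 0.043, close to the sizes of most of these shifts. The number of proteins called lower depended on the variance model: with a mean-variance trend and robust moderation it was 24, with 2 higher. It was 3 without 40 °C replicate 3, which cost RPL27A and RPL35A. Of the RNA controls, the 28S ribosomal RNA 5′ probe set had 10.69 ± 0.14 at 40 °C and 11.29 ± 0.11 at 37 °C, without overlap, and 18S had 10.79 ± 0.11 at 40 °C and 11.07 ± 0.17 at 37 °C, with overlap (SD, n = 3 each). Their part in the results was not tested.

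The size of a protein's difference went with the brightness of the probe set. At or above the 99th percentile, 99 of 106 probe sets of ribosomal proteins (93.4%) differed by at most 0.1 at 40 °C, against 58.5% of 313 other probe sets in that range. Below the 10th percentile of the proteins (11.20), it was 19 of 59 protein probe sets (32.2%), against 39.6% of 30359 others. Of these 59, 26 were called (9 higher and 17 lower; 44.1%, against 37.5% of the others), with p-values adjusted over all probe sets. RPS29, a small-subunit protein, read −0.05 on its brightest probe set and 1.42 on a dimmer one, and RPL37A of the large subunit read −0.06 and down to −0.93. RPS15A, of the small subunit, read 0.04 and 0.68. These genes were picked after their values were seen. Whether the brightest probe sets are near the upper limit of the array's range, or the dimmer ones read other transcripts, was not tested, so the small differences above describe the brightest probe sets and not the genes as a whole.

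**Figure D1:**
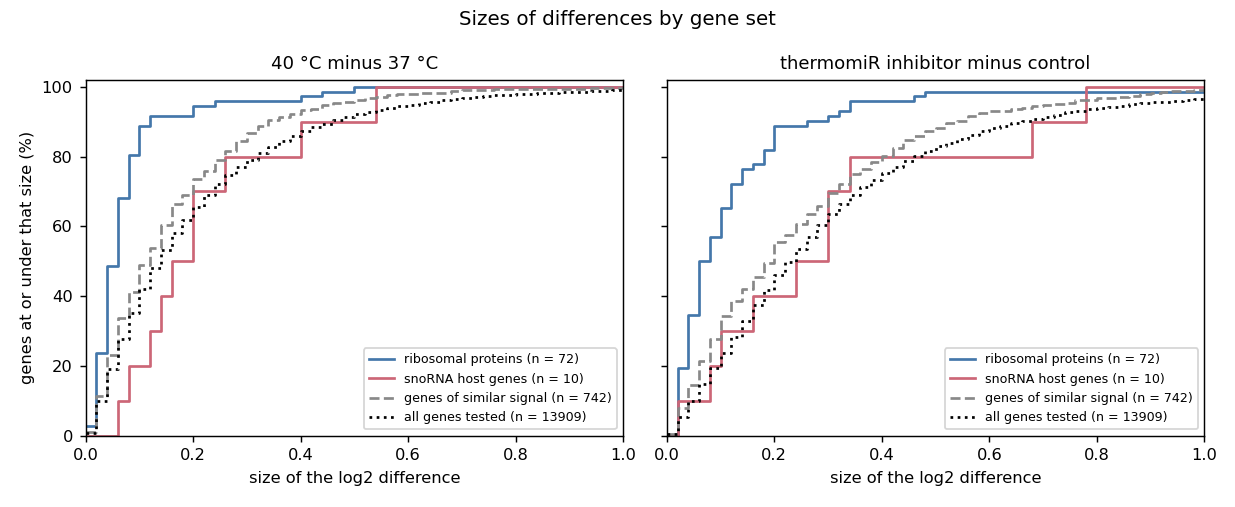
Percentage of genes (vertical axis) whose log2 difference is no larger than the size on the horizontal axis, at 40 °C minus 37 °C (left) and thermomiR inhibitor minus control (right), for 72 ribosomal proteins, 10 host genes, 742 genes of similar signal and 13909 genes tested. Each gene is read from its brightest probe set. The curve of the proteins climbs above the others over most of the range in both experiments. That of the host genes lies below all genes tested at small sizes at 40 °C (20.0% against 42.0% at 0.1). Elsewhere it lies nearer to all genes tested.

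SNHG12, whose introns carry mainly snoRNAs of the H/ACA class (which guide pseudouridylation), had the largest decrease among the host genes. Its log2 signal was 9.46, 9.35 and 9.32 at 40 °C, against 9.90, 9.97 and 9.84 at 37 °C. All arrays at 40 °C lay below all those at 37 °C. It was 1.44-fold lower (log2 difference −0.53, SE 0.06, limma adjusted p = 0.000249), and another of its probe sets was called lower as well (−0.61). SNHG1, host of several snoRNAs of the C/D class (which guide ribose methylation), had 7.58, 7.50 and 7.63 at 40 °C, against 7.94, 8.04 and 7.93 at 37 °C. Again the groups stood apart, and SNHG1 was 1.32-fold lower (−0.40, SE 0.05, limma adjusted p = 0.000761).

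SNHG32, another C/D host, had 12.27, 12.30 and 12.27 at 40 °C, against 12.53, 12.54 and 12.55 at 37 °C. Replicates differed by at most 0.03 while the groups differed by 0.26 (SE 0.04, 1.20-fold lower, limma adjusted p = 0.00154). Its other probe set also fell, by 0.28. SNHG7, which carries H/ACA snoRNAs, had 9.26, 9.21 and 9.34 at 40 °C, against 9.44, 9.48 and 9.48 at 37 °C. It was lower by −0.20 (SE 0.05, limma adjusted p = 0.0142), but its fainter probe set went the other way without passing the test (0.16), and averaging its probe sets gave −0.02 (limma adjusted p = 0.85). SNHG29, a C/D host, had 12.92, 12.94 and 12.93 at 40 °C, against 13.09, 13.08 and 13.18 at 37 °C. It was lower by −0.19 (SE 0.05, limma adjusted p = 0.0135). That call was lost without 37 °C replicate 3 (−0.16, limma adjusted p = 0.0506) and with the mean of its probe sets (−0.11, limma adjusted p = 0.0619).

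The other 5 host genes did not pass the test at 40 °C. SNHG8 had 11.04, 10.96 and 11.01 at 40 °C, against 11.18, 11.04 and 11.16 at 37 °C, and differed by −0.12 (SE 0.05). The groups of SNHG8 touched, since the highest array at 40 °C equalled the lowest at 37 °C. SNHG28 had 4.60, 4.67 and 4.62 at 40 °C, against 4.54, 4.37 and 4.54 at 37 °C, close to the filter, and was the host gene whose groups did not overlap in the other direction (0.15, SE 0.06, limma adjusted p = 0.0854). SNHG9, SNHG11 and SNHG17 differed by 0.11 (SE 0.06), 0.07 (SE 0.05) and 0.06 (SE 0.08), with overlapping groups.

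**Figure D2:**
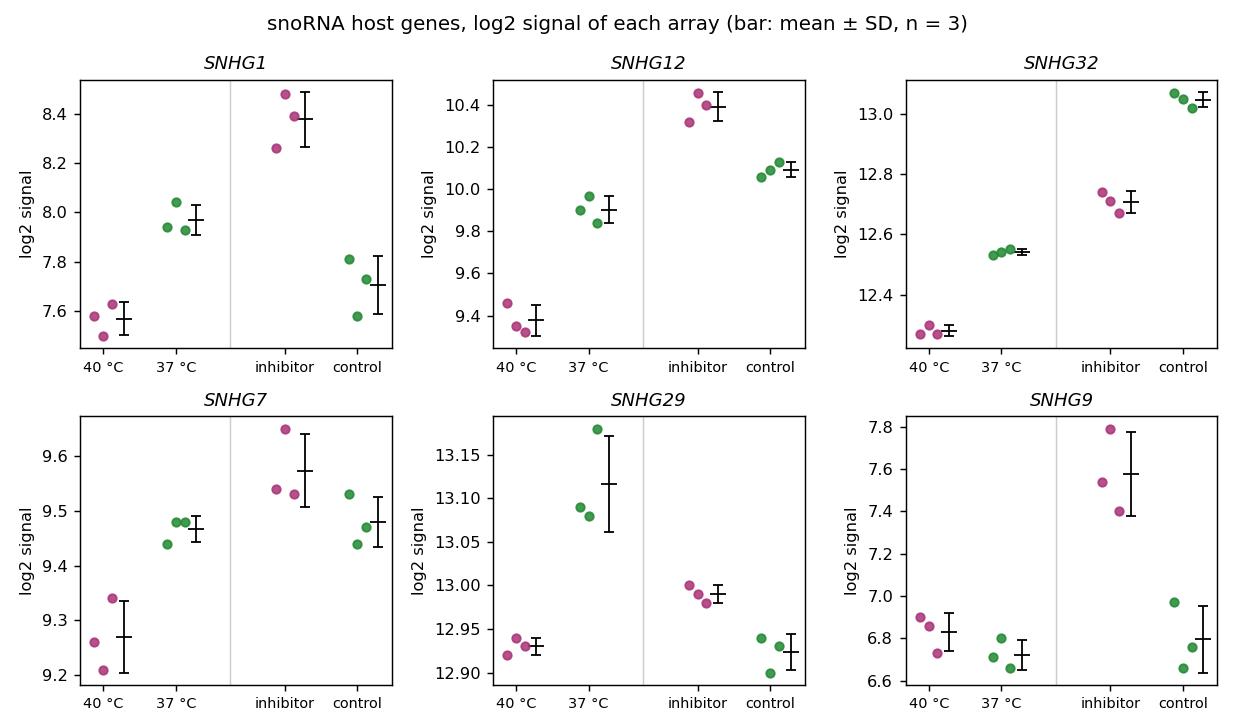
Log2 signal (vertical axes, each on its own range) of SNHG1, SNHG12, SNHG32, SNHG7, SNHG29 and SNHG9 on every array, with group means ± SD (n = 3): 40 °C, 37 °C, thermomiR inhibitor and control. Arrays at 40 °C lie below those at 37 °C for every gene shown but SNHG9, and inhibitor arrays lie above controls for SNHG1, SNHG12, SNHG29 and SNHG9 and below them for SNHG32.

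Among the proteins of the large subunit, the largest decrease at 40 °C was in RPL22L1, a paralogue of RPL22 that can take its place in the ribosome. RPL22L1 had 10.39, 10.31 and 10.40 at 40 °C, against 10.85, 10.92 and 10.82 at 37 °C. The groups were separated by more than 0.4, and the gene was 1.41-fold lower (log2 difference −0.50, SE 0.05, limma adjusted p = 0.000174). RPL22 itself had 13.77, 13.76 and 13.71 at 40 °C, against 13.81, 13.80 and 13.75 at 37 °C. These overlapped and the difference of −0.04 (SE 0.04) did not pass the test, although the dimmest of 3 RPL22 probe sets was lower (−0.26, limma adjusted p = 0.00253). RPL13 was the protein that rose: it had 11.56, 11.52 and 11.45 at 40 °C, against 11.10, 11.11 and 11.03 at 37 °C. It was 1.35-fold higher (0.43, SE 0.05, limma adjusted p = 0.000338), on its single probe set. RPL13A, a protein with a similar name but a different structure, differed by −0.03 (SE 0.04) and was not called, while its dimmer probe set was lower (−0.21).

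RPL36AL, a near-identical relative of RPL36A, had 11.13, 11.16 and 11.14 at 40 °C, against 11.37, 11.41 and 11.36 at 37 °C. It was lower by −0.24 (SE 0.04, limma adjusted p = 0.00282), and its other probe set was lower too (−0.20). Because no probe set here belongs to RPL36A alone, the share of each copy in this signal is uncertain. RPS9, a small-subunit protein, had 12.66, 12.75 and 12.67 at 40 °C, against 12.85, 12.92 and 12.91 at 37 °C. No array at 40 °C reached the lowest at 37 °C, and the difference was −0.20 (SE 0.05, limma adjusted p = 0.0113). With the level of the poly-A spike controls as a covariate, this call was lost (−0.25, SE 0.08, limma adjusted p = 0.0708). The calls of RPL27A (−0.52, SE 0.17), SNHG7 (−0.14, SE 0.08) and SNHG29 (−0.14, SE 0.08) were lost too. The spike level was 7.73 to 7.795 at 40 °C and 7.656 to 7.73 at 37 °C, so it and the temperature can hardly be told apart.

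RPL35A, a large-subunit protein whose gene is mutated in some patients with Diamond-Blackfan anaemia, gave opposite answers on its probe sets. The brighter one had 9.88, 9.91 and 9.85 at 40 °C, against 10.05, 10.14 and 10.01 at 37 °C, a decrease of −0.19 (SE 0.05, limma adjusted p = 0.0193). The dimmer one was higher at 40 °C by 0.28 (SE 0.06, limma adjusted p = 0.00703), and the mean over the probe sets of RPL35A was 0.02. The call on the brighter one was also lost without 37 °C replicate 2 (limma adjusted p = 0.0581) and without 40 °C replicate 3 (limma adjusted p = 0.0644). RPL27A was read from a single faint probe set, at 5.04, 4.68 and 4.76 at 40 °C, against 5.10, 5.33 and 5.21 at 37 °C. Its decrease of −0.39 (SE 0.10, limma adjusted p = 0.016) was lost without 40 °C replicate 2 (limma adjusted p = 0.0561) or 40 °C replicate 3 (limma adjusted p = 0.055). For 14 proteins that were not called at 40 °C, another probe set of the gene was, and such genes were not counted over all genes. Over all 174 probe sets of the tested proteins, 9 were higher and 20 lower at 40 °C. Of other probe sets, 37.5% of 30359 below the 10th percentile of the proteins were called. It was 45.2% of 836 between that level and the 99th percentile, and 27.5% of 313 from there up.

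The acidic stalk proteins RPLP1 and RPLP2, which recruit elongation factors to the ribosome, were not called at 40 °C. RPLP1 differed by 0.01 (SE 0.04) and RPLP2 by −0.08 (SE 0.04). The 3 arrays of RPLP2 at 40 °C (13.40, 13.34 and 13.35) lay below those at 37 °C (13.45, 13.47 and 13.42) all the same. The p53-induced paralogue RPS27L had 11.44, 11.45 and 11.43 at 40 °C, against 11.40, 11.36 and 11.37 at 37 °C. These did not overlap, and the difference of 0.06 (SE 0.04) did not pass the test. RPS27 differed by −0.02 (SE 0.04). The remaining proteins without a call lay between −0.11 and 0.10 on the log2 scale.

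**Figure D3:**
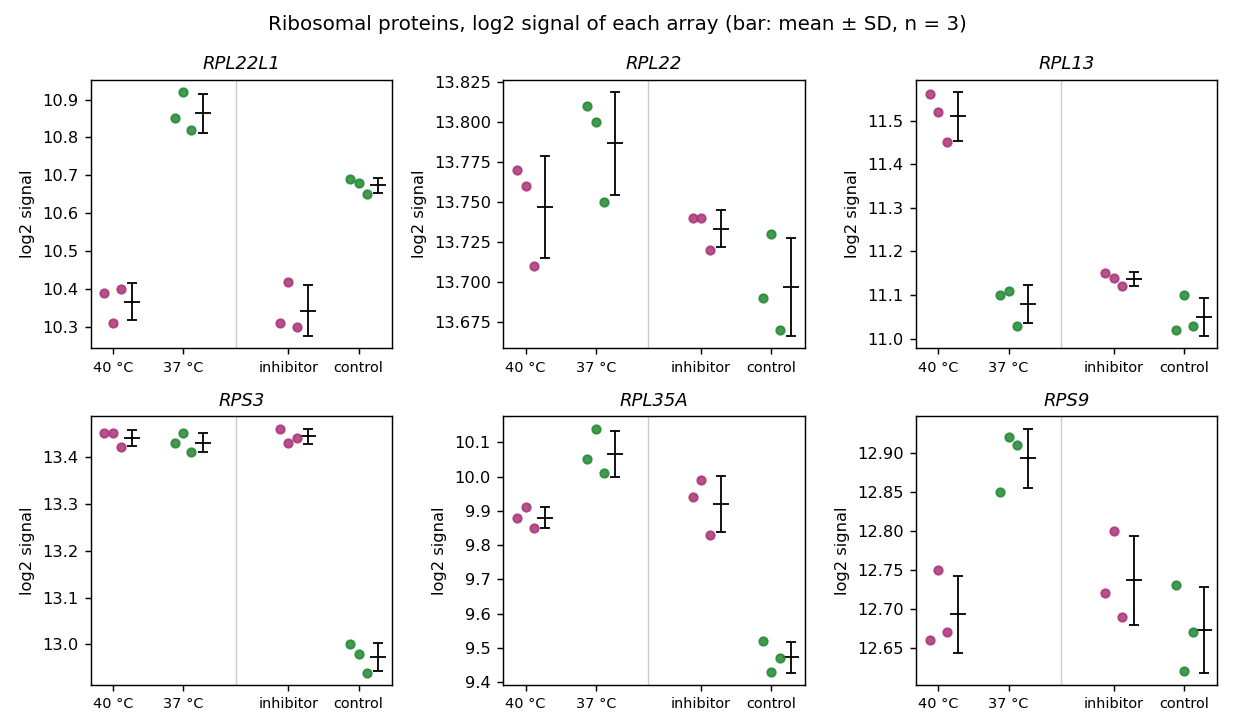
Log2 signal (vertical axes, each on its own range) of RPL22L1, RPL22, RPL13, RPS3, RPL35A and RPS9 on every array, with group means ± SD (n = 3): 40 °C, 37 °C, thermomiR inhibitor and control. RPL22L1 is lower at 40 °C and with the inhibitor, RPL13 stands out at 40 °C, and for RPS3 the control arrays lie below the other groups.

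The inhibitor comparison asked which transcripts differ when a thermomiR is blocked in such cells. On the brightest probe sets 18.1% of ribosomal proteins were called, most of them higher, and SNHG9, SNHG1 and SNHG12 rose while SNHG32 fell. Of 72 proteins, 11 were higher with the inhibitor and 2 lower, against 45.2% of all genes tested (25.6% higher and 19.6% lower) and 52.8% of the genes of similar signal (limma, Benjamini-Hochberg adjusted p under 0.05). Of 10 host genes, 3 were higher and 1 lower, which is 40.0%. The median log2 difference was 0.03 over the proteins, 0.12 over the host genes and 0.09 over all genes tested. On these probe sets the difference was at most 0.1 for 47 proteins (65.3%) and 3 of 10 host genes. It was so for 23.7% of all genes tested and 34.4% of the genes of similar signal. Inhibitor and control arrays did not overlap for 38 proteins (52.8%), 23 higher and 15 lower with the inhibitor. They did not overlap for 54.1% of all genes tested (31.2% higher and 22.9% lower) and 75.1% of the genes of similar signal. The mean log2 signal over the proteins was 12.87 ± 0.01 with the inhibitor and 12.82 ± 0.02 in controls (SD, n = 3 each), and over the host genes it was 8.99 ± 0.02 with the inhibitor and 8.83 ± 0.02 in controls.

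As at 40 °C, dimmer probe sets gave more calls. Over all 174 probe sets of the tested proteins, 44 were higher and 9 lower with the inhibitor. There were 14 proteins without a call that had another probe set called, and such genes were not counted over all genes. Below the 10th percentile of the proteins, 34 of 59 protein probe sets were called (57.6%, against 43.1% of the other probe sets there). At or above the 99th percentile it was 17 of 106 (16.0%, against 37.1%), and between these ranges 22.2% of 9 (against 56.7%). RPL7L1, a relative of RPL7 that takes part in ribosome assembly, read 0.09 on its brightest probe set, while its 6 dimmer ones were all called higher (0.52 to 1.06). The dimmer probe set of RPS29 was lower by −1.33 (limma adjusted p = 7.04e-05), against 0.03 on the brightest. Both genes were picked after their values were seen.

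The counts on the brightest probe sets move with the variance model, single arrays and the spike level. With a mean-variance trend and robust moderation, 22 proteins were higher and 10 lower. The number of proteins called higher was 7 without control replicate 2, control replicate 3 or inhibitor replicate 3. The number called lower was 4 without inhibitor replicate 2 and 1 without any other array, and SNHG28 became a further lower host gene without inhibitor replicate 1. Poly-A spike controls averaged 5.83 ± 0.27 with the inhibitor and 7.07 ± 0.35 in controls, against 7.77 ± 0.04 at 40 °C and 7.68 ± 0.04 at 37 °C (log2, SD, n = 3 each). The 18S ribosomal RNA probe sets averaged 10.14 ± 0.41 with the inhibitor and 12.75 ± 0.14 in controls. The 28S 5′ probe set averaged 11.10 with the inhibitor and 12.65 in controls. The 3′ minus 5′ signal was 0.72 and 1.04 for GAPDH, and 2.70 and 2.44 for ACTB, in the same order. Inhibitor and control arrays did not overlap in any of these. At 40 °C and 37 °C the 3′ minus 5′ signal was 0.44 and 0.38 for GAPDH, and 1.58 and 1.55 for ACTB. With a covariate for the spike level, none of the 72 proteins and 10 host genes was called for the inhibitor, and of all genes 52 were higher and 184 lower. The spike levels of the inhibitor and control arrays do not overlap, so the spike level and the treatment cannot be told apart in these arrays. Of the 11 monocyte and macrophage markers, 9 were lower and 1 higher with the inhibitor (median −0.55), LYZ by −2.34. At 40 °C, 6 of them were higher and 4 lower. The part of these RNA controls and markers in the results was not tested.

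SNHG9, an H/ACA host, had the largest increase among the host genes. Its log2 signal was 7.54, 7.79 and 7.40 with the inhibitor, against 6.97, 6.66 and 6.76 in controls. Every inhibitor array exceeded every control, and SNHG9 was 1.72-fold higher (log2 difference 0.78, SE 0.12, limma adjusted p = 0.00155). SNHG1 had 8.26, 8.48 and 8.39 with the inhibitor, against 7.81, 7.58 and 7.73 in controls. It was 1.59-fold higher (0.67, SE 0.09, limma adjusted p = 0.000692). SNHG12 had 10.32, 10.46 and 10.40 with the inhibitor, against 10.06, 10.09 and 10.13 in controls, and was 1.23-fold higher (0.30, SE 0.06, limma adjusted p = 0.00582). Its other probe set was also called higher (0.26).

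SNHG32 went the other way. It had 12.74, 12.71 and 12.67 with the inhibitor, against 13.07, 13.05 and 13.02 in controls. It was 1.27-fold lower (−0.34, SE 0.05, limma adjusted p = 0.00193), and its other probe set was lower by −0.41. SNHG7 differed by 0.09 (SE 0.06) and was not called, but its fainter probe set was higher (0.48, limma adjusted p = 0.00107). SNHG29 had 13.00, 12.99 and 12.98 with the inhibitor, against 12.94, 12.90 and 12.93 in controls, groups that did not overlap for a difference of 0.07 (SE 0.05) that did not pass the test. SNHG8 differed by −0.01 (SE 0.06), SNHG11 by 0.23 (SE 0.16), SNHG17 by 0.15 (SE 0.11) and SNHG28 by −0.30 (SE 0.14), with overlapping groups and no call.

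Of the brightly measured proteins, the small-subunit protein RPS3, which lines the mRNA entry channel, had the largest difference under the inhibitor. Its log2 signal was 13.46, 13.43 and 13.44 with the inhibitor, against 13.00, 12.98 and 12.94 in controls. It was 1.39-fold higher (0.47, SE 0.05, limma adjusted p = 0.000407). In the temperature experiment the same probe set read 13.42 to 13.45 at 40 °C and 13.41 to 13.45 at 37 °C. The experiments differed in nucleofection and sorting, so these levels cannot tell which group of the inhibitor experiment moved. RPS16, also of the small subunit, had 13.56, 13.56 and 13.51 with the inhibitor, against 13.30, 13.24 and 13.22 in controls (0.29, SE 0.06, limma adjusted p = 0.00442).

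In the large subunit, RPL35A had 9.94, 9.99 and 9.83 with the inhibitor, against 9.52, 9.43 and 9.47 in controls. It was 1.36-fold higher (0.45, SE 0.07, limma adjusted p = 0.00123), and here its dimmer probe set moved the same way (0.34, limma adjusted p = 0.0218). RPL18 had 13.08, 13.16 and 13.04 with the inhibitor, against 12.88, 12.68 and 12.73 in controls (0.33, SE 0.07, limma adjusted p = 0.00811). RPL8, whose protein lies near the peptidyl transferase centre, had 13.41, 13.44 and 13.39 with the inhibitor, against 13.17, 13.08 and 13.07 in controls (0.31, SE 0.06, limma adjusted p = 0.00394). In each of these genes the lowest inhibitor array exceeded the highest control. Among the brightest probe sets of the members, the faint one of RPL27A gave the largest difference, with 5.56, 5.66 and 5.16 for the inhibitor, against 4.52, 4.22 and 4.42 in controls (1.07, SE 0.14, limma adjusted p = 0.000754). RPL3, RPS27L, RPLP1, RPL10 and RPL28 were also called higher, by 0.17 to 0.26.

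The calls of RPL28, RPL10, RPLP1 and RPL34 lay close to the threshold. RPL28 and RPL10 had limma adjusted p = 0.0442 and 0.0308. When every probe set was fitted, the same probe sets of RPL28 and RPL10 were not called (limma adjusted p = 0.0685 and 0.0504). RPLP1 had 13.87, 13.91 and 13.92 with the inhibitor, against 13.74, 13.67 and 13.74 in controls, an increase of 0.18 (SE 0.06, limma adjusted p = 0.0302). RPL34 had 12.98, 13.02 and 12.96 with the inhibitor, against 13.17 on each control array, a decrease of −0.18 (SE 0.05, limma adjusted p = 0.0256). Neither RPLP1 nor RPL34 had overlapping groups. Both calls were still lost without any 1 of control replicates 1, 2 and 3 and inhibitor replicates 1 and 3. The limma adjusted p was then 0.0626 to 0.0943, with differences of 0.16 to 0.20 for RPLP1 and −0.18 to −0.17 for RPL34. RPLP2, the partner of RPLP1 in the stalk, had 13.42, 13.42 and 13.44 with the inhibitor, against 13.33, 13.29 and 13.30 in controls, and its difference of 0.12 (SE 0.05, limma adjusted p = 0.102) did not pass the test.

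RPL22L1 was the protein that fell in both experiments. It had 10.31, 10.42 and 10.30 with the inhibitor, against 10.69, 10.68 and 10.65 in controls, and was 1.26-fold lower (−0.33, SE 0.06, limma adjusted p = 0.00325). Averaged with its probe set near the lower end of the array's range, the difference of RPL22L1 was −0.09 and was not called (limma adjusted p = 0.478). RPL22 differed by 0.04 (SE 0.05) and was not called. The RPS27 paralogues differed in their call under the inhibitor. RPS27L had 11.65, 11.66 and 11.70, against 11.52, 11.45 and 11.45 in controls (0.20, SE 0.06, limma adjusted p = 0.023), whereas RPS27 had 13.80, 13.84 and 13.82, against 13.88, 13.87 and 13.87 in controls (−0.05, SE 0.05). Of other members with similar names, RPL10 was called higher (0.18, SE 0.05, limma adjusted p = 0.0308). RPL10A (0.02, SE 0.05) and the faintly measured RPL10L (−0.11, SE 0.10) were not. RPL35, whose name is close to RPL35A, differed by 0.14 (SE 0.05) and was not called.

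**Figure D4:**
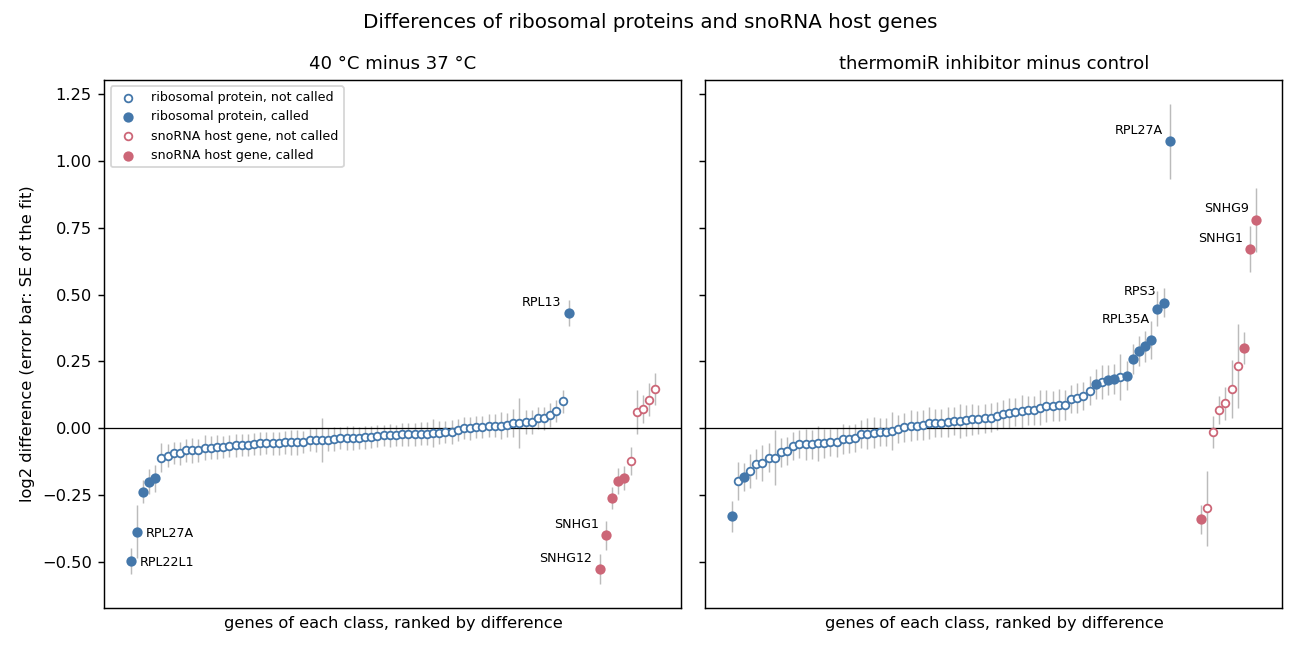
Log2 difference of each of the 72 ribosomal proteins (blue) and 10 snoRNA host genes (red), ranked within its class, at 40 °C minus 37 °C (left) and thermomiR inhibitor minus control (right), with the SE of the fit as bars. Filled points passed the limma test: 6 proteins and 5 host genes for temperature, 13 proteins and 4 host genes for the inhibitor.

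The experiments share no arrays, and their effects can be set side by side for each member. Of the 72 proteins, 56 were called in neither. Joint calls were not counted over all genes, so these counts have no background share. Taken singly, 39.3% of all genes tested were called at 40 °C and 45.2% with the inhibitor. RPL22L1 and SNHG32 were lower in both. RPL27A, RPL35A, SNHG1 and SNHG12 were lower at 40 °C and higher with the inhibitor. A test of the inhibitor effect minus the temperature effect over all 12 arrays was passed by 14 of 72 proteins (19.4%; 13 above 0 and 1 below) and 6 of 10 host genes (60.0%; 5 above 0 and 1 below), against 44.2% of all genes tested (23.1% above 0 and 21.1% below). The proteins that passed numbered 30 with averaged probe sets, 34 with trend and robust, 22 with quantile normalization and 3 with the spike covariate, which also left 2 host genes. The difference between the effects was 1.07 (SE 0.10, limma adjusted p = 7e-06) for SNHG1, 0.83 (SE 0.08, limma adjusted p = 7e-06) for SNHG12 and 0.67 (SE 0.14, limma adjusted p = 0.00232) for SNHG9. It was 0.63 (SE 0.08) for RPL35A, 0.46 (SE 0.06) for RPS3 and −0.34 (SE 0.07) for RPL13, each also past the limma threshold. It did not pass for SNHG32 (−0.08, SE 0.06, limma adjusted p = 0.292) or RPL22L1 (0.17, SE 0.07, limma adjusted p = 0.0805). The experiments differed in nucleofection and sorting, which cannot be told apart from the other differences between them.

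**Figure D5:**
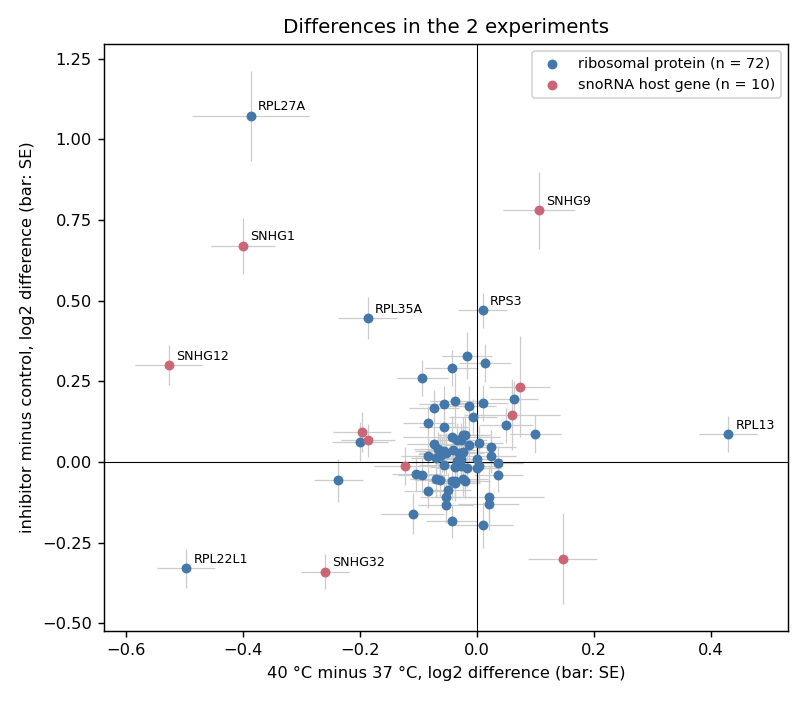
Log2 difference at 40 °C minus 37 °C (horizontal axis) against thermomiR inhibitor minus control (vertical axis) for 72 ribosomal proteins and 10 snoRNA host genes, with SEs as bars. Most proteins cluster near 0 on both axes, SNHG1 (−0.40 and 0.67) and SNHG12 (−0.53 and 0.30) lie at the upper left, and RPL22L1 (−0.50 and −0.33) and SNHG32 (−0.26 and −0.34) at the lower left.

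The tested proteins were split by a C and at least 4 further C or T bases at any annotated start of the gene. Among those with this match, 1 of 43 was higher and 4 were lower at 40 °C (median −0.04), and 8 were higher and 2 lower with the inhibitor (median 0.04). Among the 18 with an entry but no match, 1 was lower at 40 °C (median −0.03) and 2 were higher with the inhibitor (median 0.02). A missing match does not show that an mRNA lacks the TOP motif. In RPL4 and RPL10A, for example, a run of C and T lies a few bases from the annotated start. Both host genes with the match were lower at 40 °C, as were 3 of the 7 without it (median −0.12). Under the inhibitor SNHG12 rose and SNHG32 fell, and 1 of the 7 without the match was higher. Of 18 other mRNAs known for a TOP start, none was higher and 4 were lower at 40 °C (39.3% of all genes were called): NAP1L1, a histone chaperone (−0.32), HNRNPA1, a splicing regulator (−0.21), and NACA (−0.14) and BTF3 (−0.13), which form a complex that binds nascent chains at the ribosome. With the inhibitor 5 were higher and 4 lower (45.2% of all genes were called), with the elongation factor subunit EEF1D up by 0.57 and the initiation factor subunit EIF3E lower by −0.26. The median of that list was −0.02 at 40 °C and 0.00 with the inhibitor.

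Outside the SNHG names, 19 further snoRNA host genes were tested. At 40 °C, 6 were higher and 4 lower (median 0.02), where 39.3% of all genes were called. With the inhibitor 10 were higher and 5 lower (median 0.16), where 45.2% of all genes were called. The noncoding hosts ZFAS1 and EPB41L4A-AS1 and the RNA polymerase I factor gene TAF1D were lower in both experiments. ZFAS1 had 11.89, 11.86 and 11.88 at 40 °C, against 12.30, 12.21 and 12.30 at 37 °C, and 11.84, 11.87 and 11.91 with the inhibitor, against 12.33, 12.25 and 12.12 in controls. Its differences were −0.39 (SE 0.05, limma adjusted p = 0.000359) at 40 °C and −0.36 (SE 0.07, limma adjusted p = 0.00466) with the inhibitor. EPB41L4A-AS1 differed by −0.73 at 40 °C and −0.39 with the inhibitor, and TAF1D by −0.52 and −0.86 in the same order. Of the protein-coding hosts, EIF4A2, an RNA helicase of translation initiation, was 1.91-fold higher at 40 °C (0.93), and NOP56, a core protein of C/D snoRNPs, was higher by 0.22 at 40 °C and 0.75 with the inhibitor.

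Of 31 tested ribosome assembly and snoRNP factors, 9 were higher and 7 lower at 40 °C (median 0.02), against 19 higher and 2 lower with the inhibitor (median 0.42). Of all genes, 21.6% were higher and 17.7% lower at 40 °C, and 25.6% higher and 19.6% lower with the inhibitor. The called genes with the smallest p under the inhibitor were NOP2, an rRNA methyltransferase (1.07), RRS1 (0.78) and BOP1 (0.84), assembly factors of the large subunit, and RRP9, a protein of the U3 snoRNP (0.90). FBL, the methyltransferase of C/D snoRNPs, was lower at 40 °C (−0.31) and higher with the inhibitor (0.49). NOP10, a core protein of H/ACA snoRNPs, and RSL24D1, a large-subunit assembly factor, were the genes lower with the inhibitor (both −0.55). The assembly factors had a median of 0.42 under the inhibitor, beside 0.03 for the ribosomal proteins, and the difference between the lists was not tested.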

How the data were processed

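RNA of 12 samples was measured on PrimeView arrays, 3 in each of 4 groups taken from titles and treatment labels. The authors deposited 1 table of log2 values for 49395 probe sets. The unit was read from the values. How the signal was corrected for background, normalized and summarised, with which software and genome build, is not given in the sources used here.

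Gene names come from the table of the array platform. Each gene was represented by its brightest probe set with exactly 1 symbol, and genes at or above the 30th percentile (log2 4.48) were tested: 13909 of 18132. All 86 members matched RefSeq and no symbol had changed. Each experiment was fitted alone with lmFit and eBayes of limma 3.58.1 under R 4.3.3 (two-sided, no block). P-values were adjusted by Benjamini-Hochberg over all genes tested, with 0.05 as threshold. The difference between effects used all 12 arrays. An exact permutation test of 3 arrays against 3 cannot go below 0.1, so none was run. Folds are linear ratios from differences of mean log2 values. Probe sets were also fitted separately and described by signal range. The procedure was tested on simulated data, with 50 changed genes for each size of change. A log2 change of 0.25 was recovered for 34% of them with the temperature arrays and 4% with the inhibitor arrays. A change of 0.5 was recovered for 84% and 62%, and of 1.0 for 100% and 94%, in the same order. A missing call therefore does not show that a gene is unchanged. Figures were drawn with Python 3.11.15 and matplotlib 3.10.9.

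The members, lists, tests and alternatives were chosen with earlier results of these data known. Values are named for every host gene, RPLP1 and RPLP2, and paralogues or members with similar symbols that differ in call. They are also named for the 6 largest called increases and decreases of proteins per comparison, and up to 4 called genes of each other list by p. NACA, BTF3, EIF3E, EIF4A2, NOP56, FBL, NOP10 and RSL24D1 were named after their values were seen where they fall outside that rule. Alternatives were a fit of all 12 arrays, a replicate block, a 50th percentile filter or none, averaged probe sets, all probe sets separately, quantile normalization, median centring, eBayes with trend and robust, array weights, a spike covariate, and leaving out each array.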

Additional observations from a re-analysis of the deposited data

How the results depend on the processing

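Values under the alternatives were compared for part of the named genes, with RPL3, RPL10, RPL28 and RPS27L not among them. Of these 640 values, 573 kept their direction and side of the threshold, 41 lost the call and 15 gained one. In 10, the sign changed with no call before or after (SNHG8 and SNHG28 with the inhibitor, SNHG9, SNHG17 and RPLP1 at 40 °C), SNHG28 to 0.34 with the spike covariate. The reversed called value was RPL35A at 40 °C, which was 0.018 as the mean of its probe sets. For temperature, the mean of probe sets gave 5 proteins higher and 10 lower, 3 host genes lower and a host median of −0.065. Quantile normalization gave 2 proteins and 1 host gene higher, and trend with robust gave 2 proteins higher and 24 lower. The host median was −0.19 with the 50th percentile filter and −0.17 with array weights. With the spike covariate the medians were −0.060 (proteins) and −0.10 (host genes), 3 host genes were lower, and 1220 of all genes were higher and 1453 lower. Every probe set on its own gave 6302 higher and 5583 lower for temperature, and 6752 higher and 6965 lower for the inhibitor.

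For the inhibitor, the fit of all 12 arrays gave 17 proteins higher and 6 lower and 2 host genes lower, trend with robust 22 and 10 proteins, and array weights 18 and 6 proteins, 5 host genes higher, a host median of 0.15 and 5527 of all genes higher. The mean of probe sets gave 4 proteins lower and a host median of 0.19, the 50th percentile filter a host median of 0.16, quantile normalization a protein median of 0.049, and median centring 1 protein lower. With the spike covariate, 0 proteins and 0 host genes were called either way, the host median was 0.32, and of all genes 52 were higher and 184 lower. The effects of the experiments differed for 30 proteins with the mean of probe sets, 22 with quantile normalization, 34 with trend and robust, and 3 proteins and 2 host genes with the spike covariate.

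Leaving out 1 array gave, for temperature, 1 protein higher in every case, 3 to 5 lower, a protein median of −0.04 to −0.03, 4 to 6 host genes lower and a host median of −0.18 to −0.13. For the inhibitor it gave 7 to 10 proteins higher, 1 to 4 lower, a protein median of 0.02 to 0.03, 3 host genes higher, 1 to 2 lower and a host median of 0.10 to 0.16. The cause of these changes was not tested.

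Same-numbered arrays had deviations from their group means correlated at −0.133, −0.102 and 0.227 for temperature and −0.187, −0.604 and −0.154 for the inhibitor. Differently numbered arrays had −0.276 to 0.33 for temperature and −0.364 to 0.457 for the inhibitor. With 3 arrays per group, these values cannot show whether the replicate numbers pair the arrays. With the replicate block, 7 proteins were higher and 1 lower with the inhibitor, and the temperature counts were 1 and 5, as without it.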

Other observations

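Genes that control ribosome production or the decay of spliced host RNAs were read from the same fits. Of all genes tested, 39.3% were called at 40 °C (21.6% higher and 17.7% lower) and 45.2% with the inhibitor (25.6% higher and 19.6% lower). Of 12 tested RNA polymerase I genes and factors, 7 were higher and 2 lower at 40 °C, and 6 were higher and 2 lower with the inhibitor. POLR1A, the largest subunit of the enzyme, was higher in both experiments, by 0.81 at 40 °C and 0.72 with the inhibitor (limma adjusted p = 9e-05 and 0.000226). TAF1B, a subunit of its initiation complex, was lower at 40 °C (−0.64). Of 17 tested regulators of ribosome production, 4 were higher and 4 lower at 40 °C, and 12 were higher and 1 lower with the inhibitor. MTOR was higher in both (0.26 at 40 °C and 0.77 with the inhibitor), and EIF4EBP1, which blocks cap-dependent initiation when mTOR is inactive, was the regulator lower with the inhibitor (−0.98). MDM2, which holds p53 in check and is bound by free ribosomal proteins, was lower at 40 °C (−0.95) and higher with the inhibitor (0.73).

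Of 12 tested nonsense-mediated decay factors, 2 were higher and 3 lower at 40 °C, against 9 higher and 1 lower with the inhibitor, with the kinase gene SMG1 higher by 0.58. Of 10 transcripts known as targets of that pathway, 4 were higher and 1 lower at 40 °C, and 2 were higher and 7 lower with the inhibitor (median −0.37). The lists overlap in SMG5 and UPF1, the target transcripts that were higher with the inhibitor. Among the lower targets were GADD45A (−1.31), UPP1 (−0.93) and ATF4 (−0.70), which also respond to stress pathways. Lymphocyte and epithelial markers were tested for 6 of the 9 genes measured: none was called at 40 °C, and 1, KRT8, was higher with the inhibitor (0.28). The differences in RNA controls, spike level and macrophage markers given above hold for these lists too, and their part was not tested.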
